A study of Mus musculus with 18 samples.

Results

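Laminins are the large, often cross-shaped glycoproteins of basement membranes, and nidogens are the smaller glycoproteins that bind them. The laminin and nidogen genes described here were chosen by name. They are the alpha chain genes Lama2, Lama3, Lama4 and Lama5, the beta chain genes Lamb1 and Lamb2, the gamma chain genes Lamc1 and Lamc3, and the nidogen genes Nid1 and Nid2. These are 10 of the 49184 genes to which the deposited transcripts could be joined. All 10 passed the filter on low counts, in a fit of 15 libraries that tested 21129 genes and in a fit of 18 libraries that tested 21262. In the injured knee at day 7, Lama4, Lamc1, Lamb1, Nid1 and Nid2 were between 2.56-fold (Nid1) and 3.27-fold (Lama4) higher than in naïve knees, Lama3 and Lama5 rose less, and Lamc3 was 2.52-fold lower.

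Each laminin is a trimer of an alpha, a beta and a gamma chain, which assembles inside the cell. Many laminins, though not all, polymerise into a sheet once secreted. Nidogens bridge that sheet to the collagen IV network, and perlecan and agrin also bind within this scaffold. Cells hold the sheet through integrins and the glycosylated receptor dystroglycan. In most tissues basement membranes lie under epithelia and around vessels, muscle fibres, nerves and fat cells, while in cartilage, which has neither vessels nor nerves, laminins, nidogens and perlecan are found in the thin pericellular matrix around each chondrocyte.

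The libraries came from knee cartilage of male C57Bl/6J mice aged 12 weeks. In the injured animals a single mechanical load ruptured the anterior cruciate ligament (ACL) of the right knee under isoflurane, with buprenorphine given at the start, and the left knee served as the uninjured contralateral control. Cartilage was taken 1 or 7 days later, and that of several mice was pooled for each library before RNA was extracted. The text of the series gives 4 mice a pool. There were 12 mice at day 7, which allows this for 3 pools, but only 6 mice at day 1 and 6 naïve mice, so the pools of those groups held fewer. The 5 groups were naïve knees of untreated mice (n = 6, labelled as day 7), day 1 contralateral, day 1 injured, day 7 contralateral and day 7 injured knees (n = 3 each). All groups were wild type, and the sources used here do not say whether naïve mice received the anaesthetic or the analgesic. Left and right knees of naïve mice were pooled separately according to the study's supplement, so that naïve libraries share mice, and no label tells which. The 6 naïve libraries are counted as 6 in every test below although they are not independent, and p-values against naïve knees may be too small. No label ties an injured library to the contralateral library of its own pool either, and the p-values measure only the spread between these libraries.

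Depth ranged from 16074762 to 41794005 estimated read counts per library (median 25465706.5). Counts of all transcripts of a gene were summed and expressed as counts per 1000000 (CPM) after scaling each library with a TMM factor, which corrects for a few very abundant genes taking a larger share of the reads. A gene was called changed at a false discovery rate (FDR) of at most 0.05 and a difference of at least 1.5-fold, in edgeR's quasi-likelihood test over all genes. Day 7 contralateral replicate 1 stood apart, with 42.5% of its counts in its 10 most abundant genes against 16.6% to 29.8% in the other libraries, and the tests of the 10 genes that use it are also given without it. The labels give the cells as chondrocytes. The 12 chondrocyte marker genes, among them Col2a1 and Acan, had counts in every library and summed to between 3714 and 13610 CPM, but 9 erythroid genes led by the globin gene Hbb-bs summed to 16830 to 64750 CPM and 10 osteoblast genes led by Col1a1 to 7686 to 55630 CPM, so the libraries also held RNA of blood and bone. RNA of skeletal muscle and fat was present as well. In naïve libraries the muscle gene Myh4 had 979.1 to 3714 CPM and the adipocyte gene Cfd 105.7 to 415.1 CPM. In such bulk samples, fewer cells of a type and less RNA per cell cannot be told apart.

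**Figure D1:**
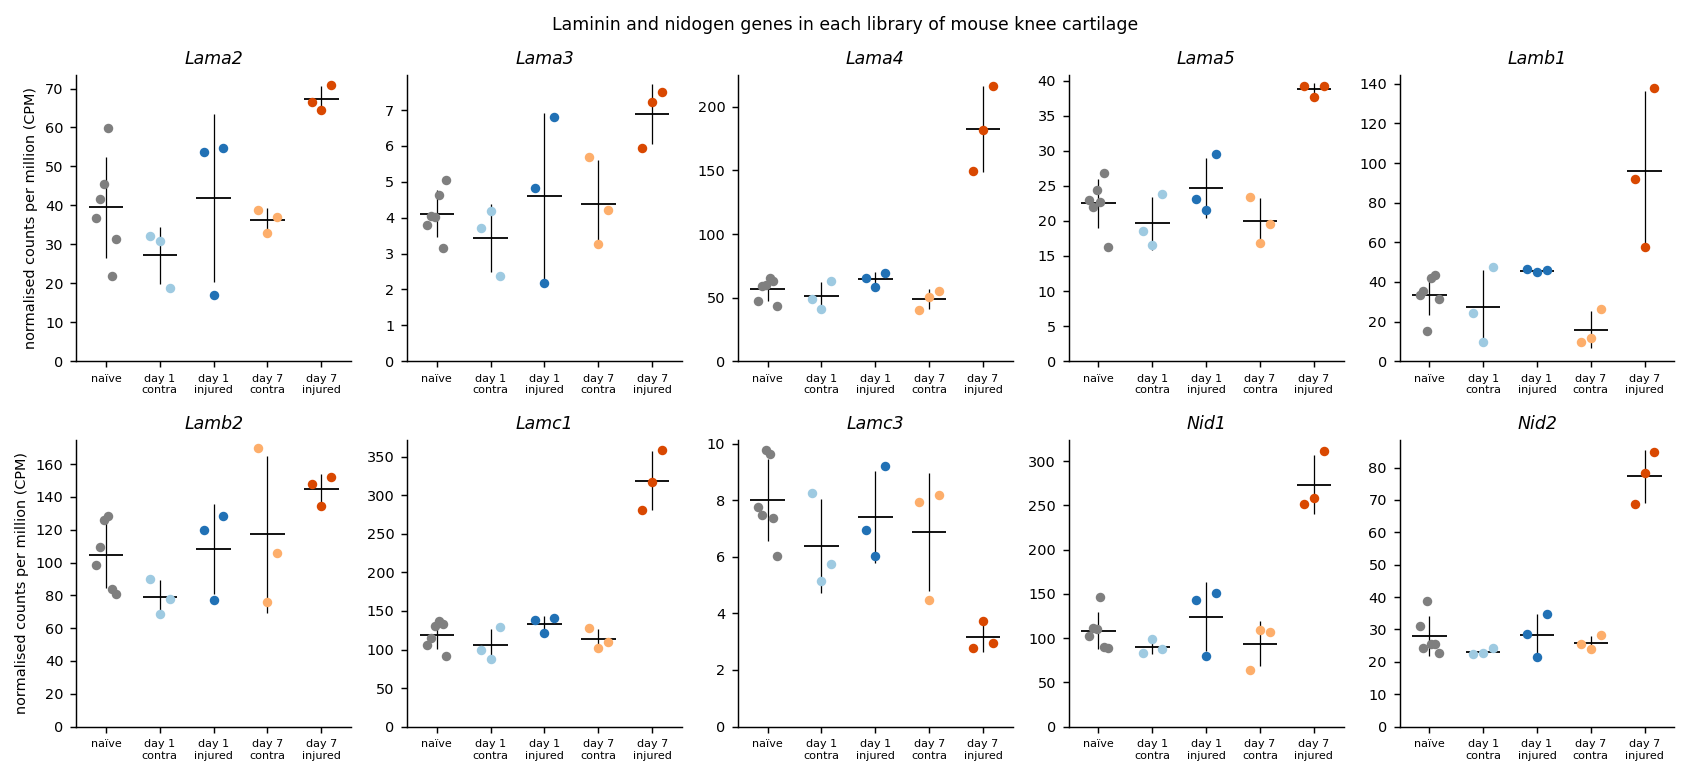
Normalised CPM (y axes, from 0, different scale for each gene) of the 10 laminin and nidogen genes in each of the 18 libraries, by group, with a horizontal bar for the mean and a vertical bar for the SD. In the day 7 injured group all 3 points lie above every naïve point for 9 genes and below every naïve point for Lamc3.

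The promoters of 5 of the 10 genes (Lama2, Lama5, Lamb1, Lamb2 and Nid1) were found in the RefSeq promoter table for GRCm38.p6, and those of the 3 that were called higher at day 7 are shown so that the sequence upstream of genes that moved together can be compared. Each runs 5′ to 3′ on the gene's strand from 250 bases before the RefSeq start and stops before the gene's start in either annotation, and capitals mark matches to the GC box (GGGCGG, or CCGCCC on the other strand) and the CCAAT box (CCAAT, or ATTGG on the other strand). They lie at chr12:31265043-31265233 (plus strand, Lamb1), chr13:13437352-13437550 (plus strand, Nid1) and chr2:180225860-180226109 (minus strand, Lama5).
Lamb1: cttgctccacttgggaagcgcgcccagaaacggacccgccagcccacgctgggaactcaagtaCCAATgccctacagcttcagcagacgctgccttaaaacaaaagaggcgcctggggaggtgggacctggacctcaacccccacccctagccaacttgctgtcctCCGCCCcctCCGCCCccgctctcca
Nid1: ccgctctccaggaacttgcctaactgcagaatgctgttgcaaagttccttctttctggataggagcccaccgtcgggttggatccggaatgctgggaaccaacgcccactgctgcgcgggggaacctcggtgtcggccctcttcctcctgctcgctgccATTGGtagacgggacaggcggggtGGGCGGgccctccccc
Lama5: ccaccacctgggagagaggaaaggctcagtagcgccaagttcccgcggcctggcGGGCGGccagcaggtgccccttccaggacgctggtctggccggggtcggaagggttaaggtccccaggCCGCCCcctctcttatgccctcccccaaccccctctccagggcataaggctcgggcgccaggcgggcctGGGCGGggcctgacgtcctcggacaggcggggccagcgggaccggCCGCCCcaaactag
Over the full 250 bases Lamb1 held 2 GC boxes and 1 CCAAT box, Nid1 held 1 of each, and Lama5 held 4 GC boxes and no CCAAT box. None of these matches overlapped another. A GC box was found in 32.7% and a CCAAT box in 33.9% of all 32851 promoters of the same length. Neither was found in the windows of Lama2 and Lamb2, but these lie differently: all 250 bases of the Lama2 window are inside the gene as annotated here, its RefSeq start being 2816 bases past the annotated one, and 126 of the 250 bases of the Lamb2 window lie past the annotated start, against 59 for Lamb1, 51 for Nid1 and 0 for Lama5. The windows with and without these boxes are therefore not comparable as upstream sequence. No window of the 5 held a TATA box (TATAAA, in 12.4% of all promoters), an AP-1 site (TGANTCA, 6.75%) or a cyclic AMP response element (TGACGTCA, 1.55%), searched on both strands. The windows of Lama5, Nid1 and Lamb1 were 72.4%, 64.4% and 62.0% GC, those of Lama2 and Lamb2 47.2% and 43.6%, and the median promoter 52.4%.

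The first comparison, day 7 injured against naïve knees, asks how the transcripts of cartilage differ a week after the ligament rupture. It called 7 of the 10 genes higher (Lama3, Lama4, Lama5, Lamb1, Lamc1, Nid1 and Nid2), 1 lower (Lamc3) and 2 neither (Lama2 and Lamb2), where 10.4% of all genes tested were called higher and 6.11% lower. The 10 had a median log2 fold change of 1.08, beside -0.04 over all genes tested. The libraries of the groups did not overlap for any of the 10, 9 being higher and 1 lower, against 17.4% and 10.8% of all genes tested. These calls depend in part on the scaling: with libraries scaled by total counts alone the median gene shifted to -0.35 on the log2 scale, the calls over all genes went from 2207 higher and 1291 lower to 1268 higher and 4556 lower, and Lama3 (log2 0.45, FDR 0.172) and Lama5 (log2 0.48, FDR 0.0187) were no longer called, while Lama4, Lamb1, Lamc1, Lamc3, Nid1 and Nid2 still were.

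Among the alpha chains, which carry the domains that cells bind, Lama4 (chr10:38965515-39110188, plus strand, 38 exons in its coding transcript) changed most. This chain forms the laminins of vessel walls, fat and peripheral nerve. Its level was 43.4 to 65.6 CPM in the 6 naïve libraries, with a median of 59.5 CPM. In the day 7 injured libraries it was 149.5, 181.9 and 216.6 CPM, and no library of another group exceeded 69.1 CPM. Its day 1 injured libraries had 65.7, 58.3 and 69.1 CPM, its day 1 contralateral libraries 49.1, 41.2 and 63.2 CPM, and its day 7 contralateral libraries 40.5, 50.5 and 55.6 CPM. The log2 fold change against naïve knees was 1.71 ± 0.149 (SE; FDR 6.97e-07), and it was called under all 19 alternative settings tried.

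Lama5 (chr2:180176373-180225859, minus strand) encodes the alpha chain found most widely in adult basement membranes. Its naïve libraries ran from 16.3 to 26.8 CPM with a median of 22.8 CPM. The day 7 injured libraries had 39.3, 37.6 and 39.3 CPM, the narrowest spread of any of the 10 genes in that group relative to its mean (38.7 ± 0.946 CPM, SD, n = 3). The groups did not overlap. The log2 fold change was 0.80 ± 0.143 (FDR 0.00062), but with each library's average transcript length taken into account it was 0.51, under the 1.5-fold limit.

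Lama3 encodes the alpha chain of the anchoring laminin of epithelia and was the lowest of the 4 alpha chain genes described here. It had 3.14 to 5.06 CPM in naïve libraries (median 4.03) and 5.95, 7.22 and 7.49 CPM in day 7 injured libraries. These did not overlap, although 1 day 1 injured library (6.80 CPM) lay within the day 7 range. The log2 fold change was 0.76 ± 0.262 (FDR 0.0404). The call held under 8 of 19 alternatives, and was lost without naïve replicate 1, 2, 3 or 5 and without any of the 3 day 7 injured libraries (FDR up to 0.172 over the alternatives).

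Lama2 (chr10:26980036-27619758, minus strand) encodes the alpha chain of the laminin around skeletal muscle fibres and Schwann cells. Its naïve libraries ran from 21.9 to 59.9 CPM with a median of 39.2 CPM, and its day 7 injured libraries had 66.5, 64.5 and 70.9 CPM. The groups were apart by a small margin, from 59.9 to 64.5 CPM, and the log2 fold change of 0.79 ± 0.315 did not pass the test (FDR 0.0725). Its day 1 libraries were spread widely, at 53.7, 17.1 and 54.8 CPM in injured and 32.04, 30.8 and 18.7 CPM in contralateral knees. In each of the naïve, day 1 contralateral and day 1 injured groups, the library with the least Lama2 also had the smallest adipocyte sum. It also had the largest sum of the synovial fibroblast genes, which Prg4 led (mean of 780.7 CPM in naïve libraries, against 100.8 CPM for Pdgfra). In the day 7 contralateral group the library with the least Lama2 had neither. In day 1 injured replicate 2, for example, 10 skeletal muscle genes led by Myh4 summed to 3205 CPM against 7380 and 11480 CPM in the other 2 libraries of its group, and 10 adipocyte genes led by Cfd to 247.8 CPM against 956.9 and 860.3 CPM. The day 7 injured libraries went the other way, with muscle sums of only 2218 to 4555 CPM and adipocyte sums of 216.5 to 306.7 CPM beside the highest Lama2 levels of the series, and what part other tissue had in the Lama2 levels was not tested.

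Both beta chains were detected well, and they differed in how much they varied. Lamb1 (chr12:31265234-31329644, plus strand) encodes the beta chain of the laminins of early development and of vessels. It had 15.3 to 43.7 CPM in naïve libraries, with a median of 34.5 CPM, and 91.8, 57.7 and 138.1 CPM in day 7 injured libraries. The injured libraries thus varied widely among themselves, yet all 3 were above every other library of the series. The log2 fold change was 1.53 ± 0.373 (FDR 0.00619). Without day 7 injured replicate 3, the highest library, it was 1.18 and did not pass the test (FDR 0.06).

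The other beta chain gene, Lamb2 (chr9:108479736-108490530, plus strand), encodes the chain of the neuromuscular junction and the kidney glomerulus. It had 80.9 to 128.1 CPM in naïve libraries (median 103.8) and 147.7, 134.3 and 152.3 CPM in day 7 injured libraries. Though the groups did not overlap, the difference was 1.40-fold (log2 0.49 ± 0.165, FDR 0.036) and so under the fold limit. In the day 7 contralateral group it was 169.7, 76.0 and 106.1 CPM, the highest value of the series being in the library that stood apart.

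The gamma chain genes moved in opposite directions. Lamc1 (chr1:153218922-153332786, minus strand) encodes the gamma chain that most laminins carry and to which nidogens bind, and it had the highest mean CPM of the 10 in naïve, day 1 and day 7 injured libraries. Its naïve libraries had 91.6 to 136.9 CPM with a median of 122.5 CPM, and its day 7 injured libraries had 281.7, 317.7 and 358.5 CPM. The other groups had 99.7, 88.2 and 129.5 CPM (day 1 contralateral), 137.8, 121.6 and 140.8 CPM (day 1 injured) and 127.7, 102.2 and 109.9 CPM (day 7 contralateral), all within or close to the naïve range. The log2 fold change was 1.44 ± 0.134 (FDR 1.26e-06), called under all 19 alternatives.

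Lamc3 (chr2:31887291-31946539, plus strand) encodes a gamma chain of narrower distribution. It was the only one of the 10 that fell, from 6.02 to 9.78 CPM in naïve libraries (median 7.62) to 2.77, 3.74 and 2.96 CPM in day 7 injured libraries. The other groups had 8.27, 5.15 and 5.75 CPM (day 1 contralateral), 6.95, 6.04 and 9.20 CPM (day 1 injured) and 7.95, 4.46 and 8.18 CPM (day 7 contralateral), all above the day 7 injured libraries. The log2 fold change was -1.33 ± 0.208 (FDR 0.000192) and was called under all 19 alternatives. An antisense gene on the opposite strand, Gm13441, overlaps Lamc3, and had a median of 0.24 transcripts per 1000000 (TPM). The library kit keeps strand, but the strand setting used in counting is not given in the sources used here.

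Both nidogen genes rose by similar amounts. Nid1 (chr13:13437551-13512269, plus strand, 20 exons in its coding transcript) had 88.5 to 146.1 CPM in naïve libraries with a median of 106.5 CPM, and 251.2, 257.7 and 311.6 CPM in day 7 injured libraries. It had 83.4, 98.5 and 87.4 CPM in day 1 contralateral, 142.7, 79.2 and 150.5 CPM in day 1 injured and 64.1, 109.5 and 106.8 CPM in day 7 contralateral libraries, the day 1 injured group being the most spread. Nid1 has the wider tissue distribution of the pair. Nid2 (chr14:19751265-19811787, plus strand) had 22.6 to 38.9 CPM in naïve libraries with a median of 25.5 CPM, and 68.8, 78.3 and 84.9 CPM in day 7 injured libraries. Its day 1 contralateral libraries had 22.3, 22.7 and 24.1 CPM, its day 1 injured libraries 28.4, 21.4 and 34.7 CPM and its day 7 contralateral libraries 25.4, 23.98 and 28.2 CPM. For neither gene did any library of the other groups reach the day 7 injured range, the highest being 150.5 CPM for Nid1 and 38.9 CPM for Nid2. The log2 fold changes were 1.36 ± 0.176 (FDR 3.45e-05) and 1.48 ± 0.156 (FDR 4.3e-06), and both were called under all 19 alternatives. The 3′ end of Nid2 overlaps the gene Rtraf, which lies on the opposite strand and had a median of 14.8 TPM.

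**Figure D2:**
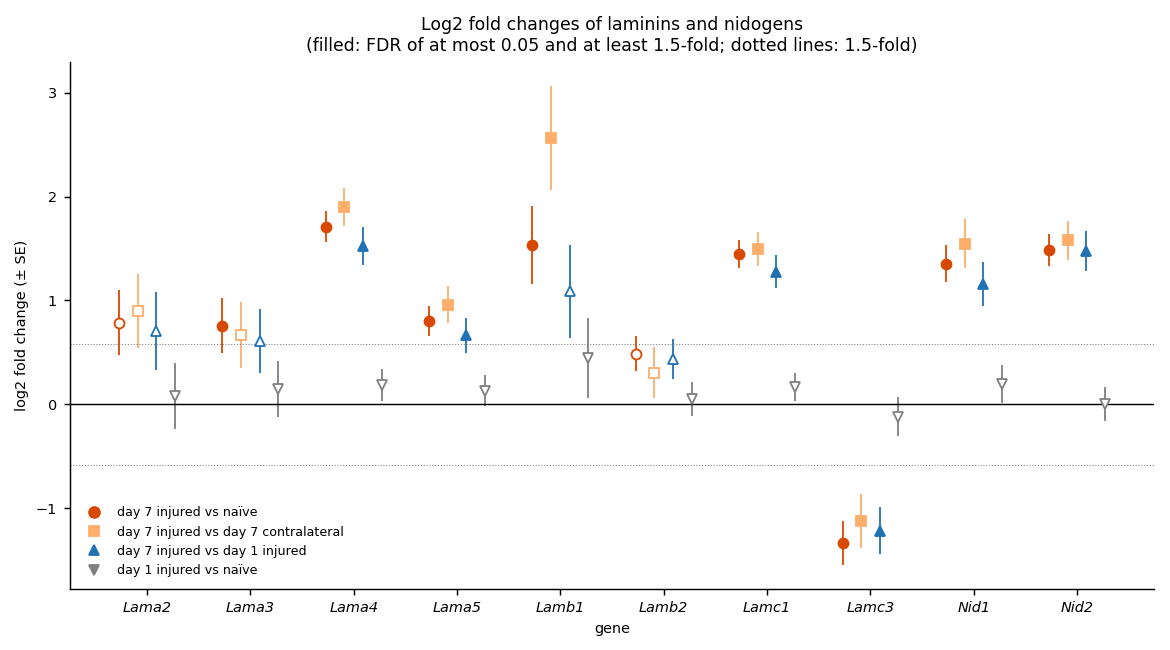
Log2 fold change with SE (y axis) of each of the 10 genes in 4 comparisons, filled where FDR was at most 0.05 and the difference at least 1.5-fold, with dotted lines at 1.5-fold. In the 3 comparisons with day 7 injured knees each gene keeps its sign, from 2.57 for Lamb1 against the contralateral knee to -1.33 for Lamc3 against naïve knees, and Lamb1 differs most between them (1.09 to 2.57), while day 1 injured against naïve knees lies between -0.12 and 0.45.

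Against the contralateral knee at day 7, the uninjured knee of injured mice, 6 of the 10 genes were higher (Lama4, Lama5, Lamb1, Lamc1, Nid1 and Nid2) and Lamc3 was lower, where 9.33% and 3.23% of all genes were called higher and lower. Lamb1 differed most, at a log2 fold change of 2.57 ± 0.5 (FDR 0.00139), and its contralateral libraries had 9.90, 11.5 and 26.6 CPM against 91.8, 57.7 and 138.1 CPM in injured knees. Lama4 followed at 1.90 ± 0.187 (FDR 1.68e-06), then Nid2 at 1.58 ± 0.187, Nid1 at 1.55 ± 0.237, Lamc1 at 1.496 ± 0.163 and Lama5 at 0.96 ± 0.176, while Lamc3 was at -1.12 ± 0.261 (FDR 0.00545). Lama2 (0.90, FDR 0.0932), Lama3 (0.66, FDR 0.164) and Lamb2 (0.31, FDR 0.437) did not pass. Without day 7 contralateral replicate 1, when 9.31% and 1.99% of all genes were called higher and lower, the same 7 genes were called, Lamb1 was at 2.35 and Lamc3 at -0.99, and Lamb2 was called as well (0.69, FDR 0.0461). The day 7 injured libraries are used in both comparisons, so their values are not independent.

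Against the injured knee at day 1, 5 genes were called higher at day 7 (Lama4, Lama5, Lamc1, Nid1 and Nid2) and Lamc3 lower, where the shares of all genes were 9.04% and 6.38%. Lama4 was higher by 1.52 ± 0.182 on the log2 scale, Nid2 by 1.48 ± 0.19, Lamc1 by 1.28 ± 0.162, Nid1 by 1.16 ± 0.212 and Lama5 by 0.67 ± 0.169, and Lamc3 was at -1.21 ± 0.229. Lamb1 was at 1.09 ± 0.449 and did not pass (FDR 0.0906), its day 1 injured libraries standing at 46.4, 44.8 and 46.0 CPM. The Lama5 call was lost when libraries were scaled by total counts alone (log2 0.22, FDR 0.317), with the transcript length offset (0.596, FDR 0.0554), without day 1 injured replicate 2 (0.56, FDR 0.0517) and at an FDR of 0.01 (its FDR was 0.0104).

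At day 1 no laminin or nidogen gene was called, and in edgeR neither was any other gene. In edgeR, 0 of the 10 passed in day 1 injured against naïve knees (background 0%), with log2 fold changes from -0.12 (Lamc3) to 0.45 (Lamb1), and 0 of the 10 had an unadjusted p under 0.05, as 4.54% of all genes did. The Lamb1 libraries of day 1 injured knees, at 44.8 to 46.4 CPM, all lay just above the highest naïve library of 43.7 CPM, and 1.07% of all genes were apart in that direction. In day 1 injured against day 1 contralateral knees, also with 0 called (background 0%), all 10 genes were above 0, from 0.21 (Lamc3) to 0.74 (Lamb1), with a median of 0.37 against -0.0015 for all genes, and Lamb2 and Nid1 had an unadjusted p under 0.05 in edgeR, as 6.55% of all genes did, at an FDR of 0.755 each. Several marker lists lay above 0 as well in this comparison, with 10 of 10 adipocyte genes (median 0.48), 10 of 10 osteoblast genes (0.47) and 12 of 12 chondrocyte genes (0.30). So did 9 of 10 mural (0.25), 9 of 10 skeletal muscle (0.23), 9 of 10 synovial fibroblast (0.20) and 9 of 10 endothelial genes (0.19). By contrast, 0 of 9 erythroid (-0.37), 1 of 9 macrophage (-0.10) and 3 of 10 Schwann cell genes (-0.30) lay above 0. The part of these tissues in the shift was not tested. The 10 laminin and nidogen genes were all below 0 in day 1 contralateral against naïve knees, from -0.54 (Lama2) to -0.14 (Lama4), a comparison that shares the contralateral libraries, and 0 were called (background 0%), with only Lamb2 under an unadjusted p of 0.05 in edgeR, as 2.62% of all genes were. Above 0 there were 0 of 10 adipocyte (median -0.41), 0 of 12 chondrocyte (-0.35) and 0 of 10 osteoblast genes (-0.23). So were 2 of 10 mural (-0.14), 4 of 10 skeletal muscle (-0.12), 2 of 10 endothelial (-0.07) and 4 of 10 synovial fibroblast genes (-0.03). The macrophage list had 4 of 9 (-0.01), the erythroid list 8 of 9 (0.07) and the Schwann cell list 8 of 10 (0.11), and their part was not tested. DESeq2 and limma-voom also called 0 of the 10 in each of these comparisons.

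The uninjured knee of injured mice at day 7 did not differ from naïve knees past the thresholds for any of the 10 genes in edgeR, DESeq2 or limma-voom (background 0% in edgeR). Lamb1 was furthest from 0, at -1.05 ± 0.435 (FDR 0.282 in edgeR), and was the only one under an unadjusted p of 0.05, as 15.1% of all genes were. Its day 7 contralateral libraries, at 9.90, 11.5 and 26.6 CPM, overlapped the naïve libraries through naïve replicate 3 at 15.3 CPM. Without day 7 contralateral replicate 1, Lamb1 was at -0.81 ± 0.493 (FDR 0.918) and again 0 of the 10 were called in edgeR, with 0 under an unadjusted p of 0.05.

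Whether the difference between injured and contralateral knees was itself larger at day 7 than at day 1 was tested as an interaction over all 18 libraries. It was for Lama4, whose log2 fold change grew by 1.57 ± 0.257 (FDR 0.00157), for Nid2, by 1.29 ± 0.261 (FDR 0.00804), and for Lamc1, by 1.16 ± 0.226 (FDR 0.00619), where 3.53% of all genes were called in that direction. Without day 7 contralateral replicate 1 they were at 1.48 (FDR 0.0036), 1.31 (FDR 0.0116) and 1.28 (FDR 0.00431). The Nid2 call was lost under total count scaling (1.09, FDR 0.0727). For Lamc3 it was lower by 1.33 (-1.33 ± 0.358, FDR 0.0444), where 0.245% of all genes were. This call was lost without day 7 contralateral replicate 1 (-1.20, FDR 0.0775) and held under 8 of 21 alternatives. It was also lost without day 1 injured replicate 1 or 3, day 1 contralateral replicate 2 or 3, day 7 contralateral replicate 3, or any of the 3 day 7 injured libraries, with log2 values from -1.58 to -1.15 and an FDR of up to 0.125 over the alternatives. Lamb1 (1.82 ± 0.674, FDR 0.164), Nid1 (1.08 ± 0.329, FDR 0.0809), Lama5 (0.63, FDR 0.189), Lama2 (0.27), Lama3 (0.24) and Lamb2 (-0.15) did not pass in edgeR with all libraries. Under 1 of 21 alternatives each, Nid1 was called with DESeq2 and Lamb1 was called without day 1 contralateral replicate 2.

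Levels of different genes were compared in TPM, which allows for transcript length. In naïve cartilage Lamb2 was highest at 12.5 ± 3.51 TPM (SD, n = 6), followed by Nid1 at 9.44 ± 1.69 and Lamc1 at 8.82 ± 1.71, then Lama4 at 5.32 ± 0.983, Nid2 at 3.64 ± 1.16, Lamb1 at 3.41 ± 0.937 and Lama2 at 3.06 ± 1.01, and at the low end Lama5 at 1.25 ± 0.212, Lamc3 at 0.721 ± 0.161 and Lama3 at 0.21 ± 0.0375. The first 3 overlapped their neighbours in that order, as did the 4 from Lama4 to Lama2, while the ranges of Lamc1 and Lama4, Lama2 and Lama5, Lama5 and Lamc3, and Lamc3 and Lama3 did not overlap. With protein coding transcripts alone, the naïve ranges of Lama5 (0.72 to 1.28 TPM) and Lamc3 (0.54 to 0.95 TPM) did overlap. In day 7 injured cartilage Nid1 (19.7 ± 5.28 TPM, n = 3) and Lamc1 (19.6 ± 4.2) stood above Lamb2 (15.6 ± 1.61) and Lama4 (13.4 ± 3.86), with ranges that overlapped from each to the next. Lamc3, at 0.228 ± 0.0519 TPM, had become the lowest, though its range overlapped that of Lama3 (0.301 ± 0.0843). TPM was not TMM-scaled, so these orders hold within a group and are not differences between groups.

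Most of each gene's TPM came from full-length coding transcripts. The leading transcript, such as Nid1-201 (97.2% of the gene's TPM in naïve libraries and 97.4% in day 7 injured libraries) or Lamc1-201 (91.2% and 89.97%), was the same in both groups for all 10 genes. Transcripts not annotated as protein coding made up 24.5% ± 3.91 (SD, n = 6) of Lama2 TPM in naïve and 13.9% ± 4.03 (n = 3) in day 7 injured libraries, with ranges that did not overlap. The ranges were also apart for Lama4, at 11.6% ± 5.57 and 4.64% ± 1.81, but by a small margin. Its lowest naïve library had 6.39% and its highest day 7 injured library 6.26%. For Lamb1 such transcripts made up 17.8% ± 8.43 and 6.82% ± 3.37, with ranges that overlapped. For Lama5 a short processed transcript, Lama5-202 of 451 bases, was listed at 0 in 3 of the 6 naïve libraries but took 47.5% of the gene's TPM in naïve replicate 2 and 40.8% in naïve replicate 6. Its naïve mean of 17.2% was 11.1% without replicate 2, and the day 7 injured libraries, at 0% to 1.76%, overlapped the naïve ones.

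Within each chain family, the share of each gene in the family's TPM, summed over the 10 genes described here alone, was compared by exact permutation tests, 14 in all, which can give no p below 0.0238 for 3 libraries against 6 and none below 0.1 for 3 against 3. None passed after adjustment. Lamc1 was 98.8% ± 0.114 (SD, n = 3) of the gamma chain TPM in day 7 injured knees and 92.5% ± 0.556 (n = 6) in naïve knees (two-sided exact p = 0.0238, adjusted p = 0.111), the rest being Lamc3 at 1.15% and 7.54%. No library outside the day 7 injured group exceeded 95.2% for Lamc1, so these 3 libraries, at 98.7% to 99.0%, were apart from all others. Lama4 was 69.9% ± 3.81 of the alpha chain TPM in day 7 injured and 54.0% ± 5.91 in naïve knees (exact p = 0.0238, adjusted p = 0.111). Lama3, whose CPM was higher, was a smaller share of the alpha chains, at 1.58% ± 0.208 against 2.17% ± 0.542 (exact p = 0.0238, adjusted p = 0.111). That naïve mean includes replicate 6 at 3.26%. The other naïve libraries had Lama3 shares of 1.86% to 2.07%, and the day 7 injured libraries reached 1.81%. The Lama4 share in single libraries of naïve (up to 65.2%), day 1 contralateral (68.5%) and day 1 injured knees (69.5%) came close to or into the day 7 injured range of 65.6% to 72.6%. These were the libraries with the least Lama2. Lama2 was 20.8% ± 3.09 and 30.8% ± 7.14 of the alpha chains and Lama5 7.66% ± 1.1 and 13.1% ± 3.39. Lamb1 was 31.5% ± 9.17 of the TPM of Lamb1 and Lamb2, a sum without the mostly non-coding TPM of Lamb3, in day 7 injured knees, 22.3% ± 7.23 in naïve knees and 11.3% ± 5.88 in day 7 contralateral knees (14.2% without replicate 1), with Lamb2 the larger part in every library. The nidogens kept about the same proportion, Nid1 being 70.9% ± 2.98 in day 7 injured and 72.4% ± 5.54 in naïve knees (exact p = 0.643, adjusted p = 0.692).

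**Figure D3:**
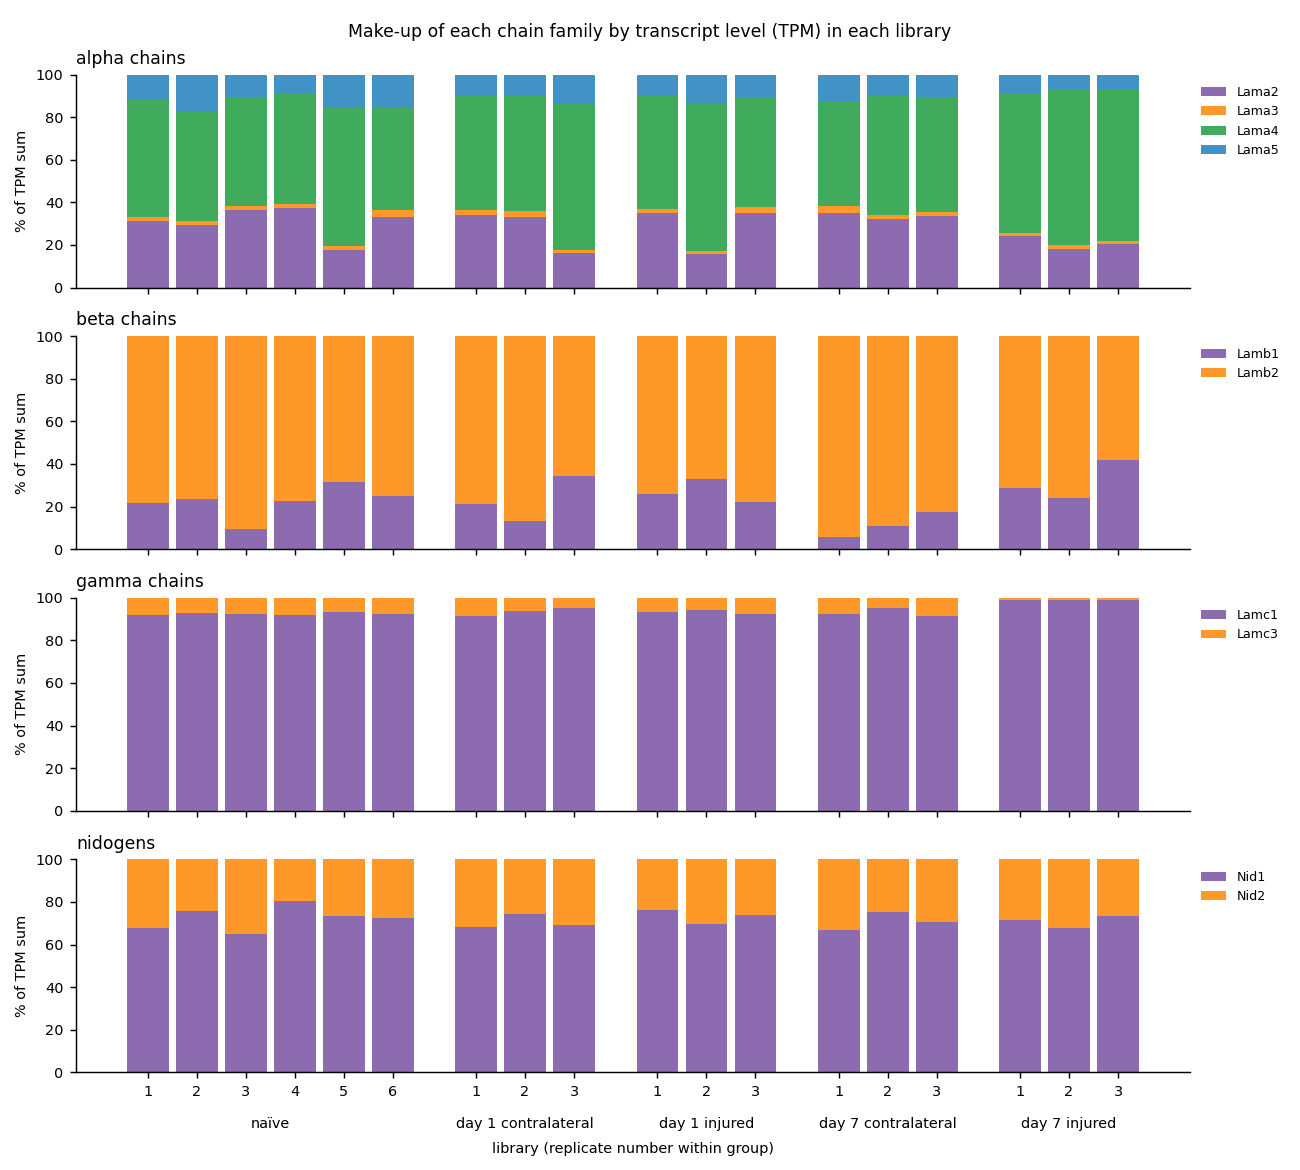
Share of each gene in the summed TPM (y axis, percent) of the alpha chains, beta chains, gamma chains and nidogens among the 10 genes in each of the 18 libraries (x axis, replicate number within group). Lamc3 takes 1.04% to 1.27% of the gamma chains in the 3 day 7 injured libraries and 4.79% to 8.67% in all others, while Nid1 takes 64.9% to 80.4% of the nidogens over all libraries.

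Lama4 rose furthest and Lamc3 fell furthest of the 10 against naïve knees. The genes whose differences from naïve knees in the other 4 groups lay nearest to those of Lama4, among 21262 genes, were Igdcc4, Gal3st4, Adamtsl1, Pcdhb19 and Loxl1, with a mean absolute difference over the 4 groups of 0.0248 to 0.0432 on the log2 scale. Those nearest to Lamc3 were Gm45857, 1810008B01Rik, Gm17907, Kcns3 and AC132455.1, at 0.059 to 0.0696.

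Many other genes of basement membranes were also higher at day 7 after injury. Of 34 listed genes 32 were tested, and 17 were called higher and 0 lower in day 7 injured against naïve knees in edgeR, where 10.4% and 6.11% of all genes were, with a median log2 fold change of 0.80. Furthest up were Col7a1 (2.79 ± 0.224), the collagen of anchoring fibrils, though at only 3.11 to 5.83 CPM, Pxdn (2.58 ± 0.244), the peroxidase that crosslinks collagen IV, Col18a1 (2.38 ± 0.35), the precursor of endostatin, Hmcn1 (2.34 ± 0.231), a hemicentin, and Col15a1 (2.08 ± 0.19). The main collagen IV chains, which form the network next to the laminins, rose together, Col4a1 by 1.43 ± 0.194 (FDR 5.21e-05) and Col4a2 by 1.39 ± 0.183 (FDR 4.06e-05). Col4a1 was 197.1 to 361.2 CPM in naïve and 684.3 to 794.1 CPM in day 7 injured libraries. Hspg2, which encodes perlecan, rose by 1.41 ± 0.155 (325.7 to 588.2 CPM in naïve and 1063 to 1277 CPM in injured libraries), and Agrn, which encodes agrin, by 0.74 ± 0.138 (FDR 0.000887), but Agrn was not called against the contralateral knee (0.31, FDR 0.347).

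The laminin chain genes Lama1 (0.72, FDR 0.145) and Lamb3 (-0.23, FDR 0.458), with at most 1.09 and 4.49 CPM in either group, did not pass. Lamb3 had 4.43 ± 1.41 TPM in naïve libraries, but 93.0% to 97.2% of it came from transcripts not annotated as protein coding. Lamb3 encodes a partner of the Lama3 chain in the epithelial anchoring laminin. Against the day 7 contralateral knee, 15 of the 32 basement membrane genes were called higher and 0 lower, against the background of 9.33% and 3.23% given above.

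Of 8 laminin receptor genes, 4 were called higher and 0 lower against naïve knees, where 10.4% and 6.11% of all genes were, and likewise 4 and 0 against the day 7 contralateral knee, where 9.33% and 3.23% were. Itgb1, the beta subunit shared by most laminin-binding integrins, rose by 1.01 ± 0.0894 (FDR 8.41e-07), from 297.7 to 349.5 CPM in naïve to 582.5 to 672.9 CPM in injured libraries. Itgb4 rose by 1.28 ± 0.176, Itga3 by 0.82 ± 0.147 and Dag1, which encodes dystroglycan, by 0.73 ± 0.135 (FDR 0.00084). The alpha subunits were not alike. Itga6, the partner of Itgb1 and Itgb4 in laminin receptors, was at 0.01 ± 0.115 (FDR 0.957), with 102.4 to 145.5 CPM in naïve and 121.5 to 145.8 CPM in injured libraries. Of 13 genes that build the laminin-binding sugar chain of dystroglycan, 6 were called higher and 0 lower against naïve knees, and 4 and 0 against the day 7 contralateral knee, beside the same shares of all genes. Among them B4gat1, an enzyme that primes the laminin-binding repeat, rose by 0.85 ± 0.144 (FDR 0.000412) but was not called against the contralateral knee (0.36, FDR 0.324). Without day 7 contralateral replicate 1, the sugar chain genes called higher against that knee numbered 7 in place of 4, the basement membrane genes 16 in place of 15, and the receptor genes stayed at 4. The median log2 fold change against naïve knees was 0.57 for the receptors and 0.50 for the sugar chain genes.

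**Figure D4:**
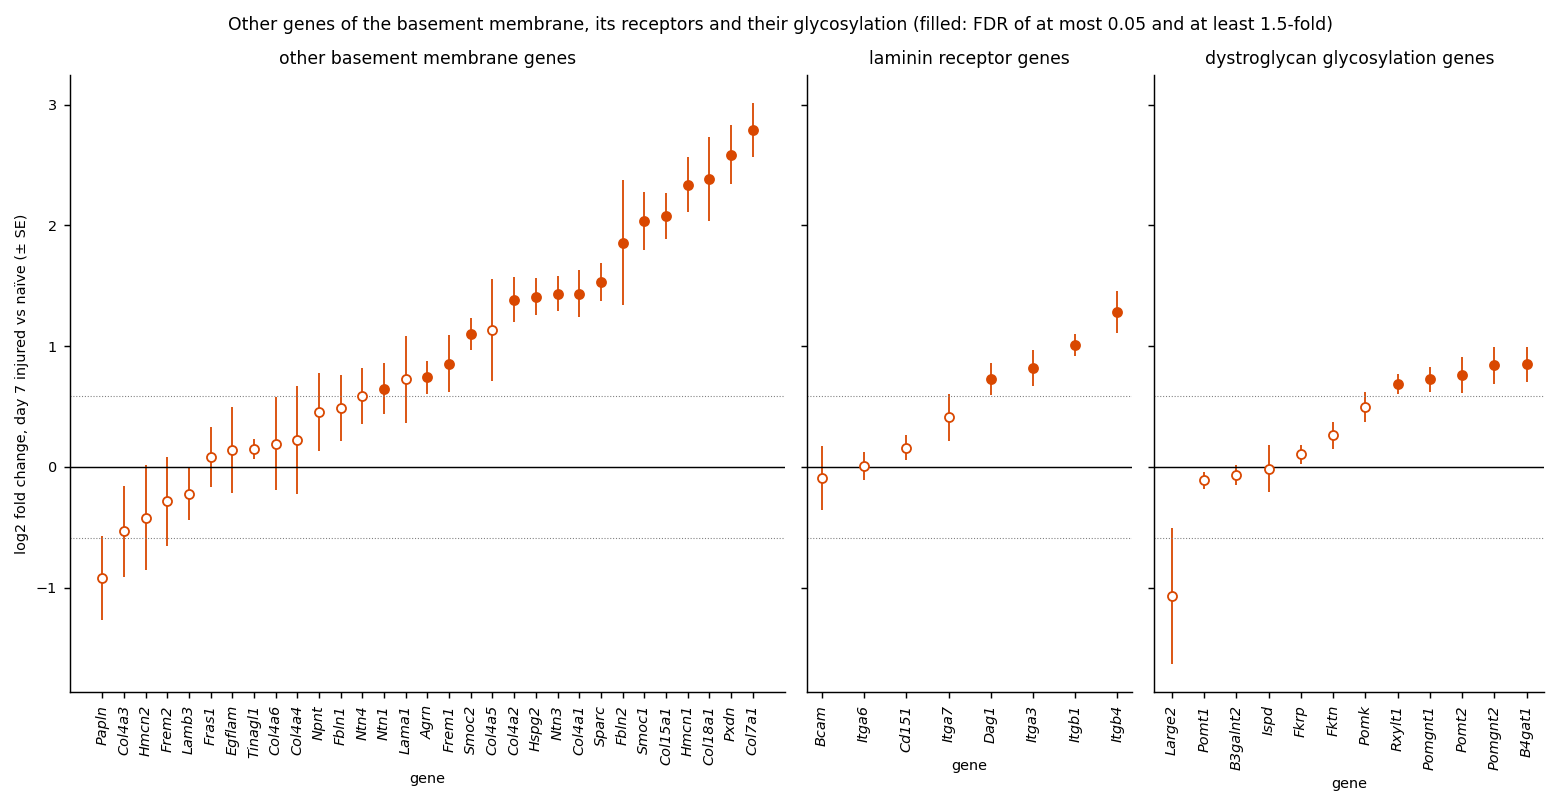
Log2 fold change with SE (y axis) in day 7 injured against naïve knees for 31 other basement membrane genes, 8 laminin receptor genes and 12 dystroglycan glycosylation genes, filled where called. The called genes plotted, 16, 4 and 5, all lie above 0, while Itga6 and Lamb3 lie near 0 and unfilled.

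Markers of the other cells that make basement membranes were set beside these results, against a background in day 7 injured against naïve knees of 10.4% of all genes called higher, 6.11% called lower and 41.1% at an unadjusted p under 0.05. In day 7 injured against naïve knees, 5 of 10 endothelial genes were higher and 0 lower (Cdh5, Emcn, Esam, Pecam1 and Tie1, median of the list 0.55), with sums of 680.0 to 754.9 CPM in injured and 530.9 to 623.4 CPM in naïve libraries, led by Vwf. Of 10 mural cell genes 5 were higher and 0 lower, with sums of 1152 to 1431 CPM in injured and 630.0 to 958.8 CPM in naïve libraries, led by Des. Endothelial and mural sums thus did not overlap between the groups. Of 10 synovial fibroblast genes 4 were higher and 0 lower (Cd248, Has1, Pdgfra and Thy1, median of the list 0.99). Has1 passed only at an FDR of 0.0491, and its groups overlapped. The other 6 were not called. Among these, Pdpn was at 1.69 (FDR 0.0947), Prg4 at 0.65 (FDR 0.266), and Cd55, Pi16, Dpp4 and Clic5 between -0.25 and 0.19. Vwf, the most abundant gene of the endothelial list, was the one gene of that list below 0 (-0.37, FDR 0.0271, under the fold limit), with 187.8 to 207.6 CPM in injured and 217.5 to 291.8 CPM in naïve libraries, while Emcn was at 1.04 and Tie1 at 0.75. The sum of the 10 laminin and nidogen genes was 1105 to 1383 CPM in injured and 417.2 to 641.0 CPM in naïve libraries. Of 10 adipocyte genes 6 fell and 0 rose, and 0 of 10 Schwann cell genes were called in edgeR (2 at an unadjusted p under 0.05). Of 10 skeletal muscle genes 1 was called lower, and 0 lay above 0 (median -0.78). Of 9 erythroid genes 5 were called lower, and 0 lay above 0 (median -0.60). Of 9 macrophage genes tested 0 were called in edgeR (5 at an unadjusted p under 0.05). Osteoblast sums, led by Col1a1, were 47880 to 55630 CPM in injured and 9172 to 17660 CPM in naïve libraries, but the 2 genes that rose were Col1a1 and Ibsp, while Sost fell and Sp7 and Runx2 were at 0.02 and 0.00. Of the 12 chondrocyte genes 4 rose (Acan, Col11a1, Comp and Sox9) and Chad fell. Against the day 7 contralateral knee, where 9.33% and 3.23% of all genes were called higher and lower, the lists did not all give the same counts. Osteoblast genes had 0 higher and 1 lower (Sost) with a median of -0.42, and contralateral osteoblast sums were 53170, 16470 and 22700 CPM, the first in the library that stood apart. Of the endothelial genes 3 were higher (Cdh5, Emcn and Pecam1) and 0 lower, with a median of 0.26. Of the mural genes 5, of the synovial fibroblast genes 4 and of the chondrocyte genes 5 were higher and 0 lower, while 6 adipocyte, 4 erythroid genes and 1 macrophage gene (Cd163) were lower and 0 higher, and 0 Schwann cell and 0 skeletal muscle genes were called. Without day 7 contralateral replicate 1 the counts were 1 higher and 2 lower for osteoblast genes, 3 lower for adipocyte genes, 0 lower for erythroid and macrophage genes, and 4 higher for endothelial, 6 for mural, 3 for synovial fibroblast and 4 for chondrocyte genes. No gene of these lists was at 0 counts in any library, and their part in the laminin and nidogen differences was not tested.

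**Figure D5:**
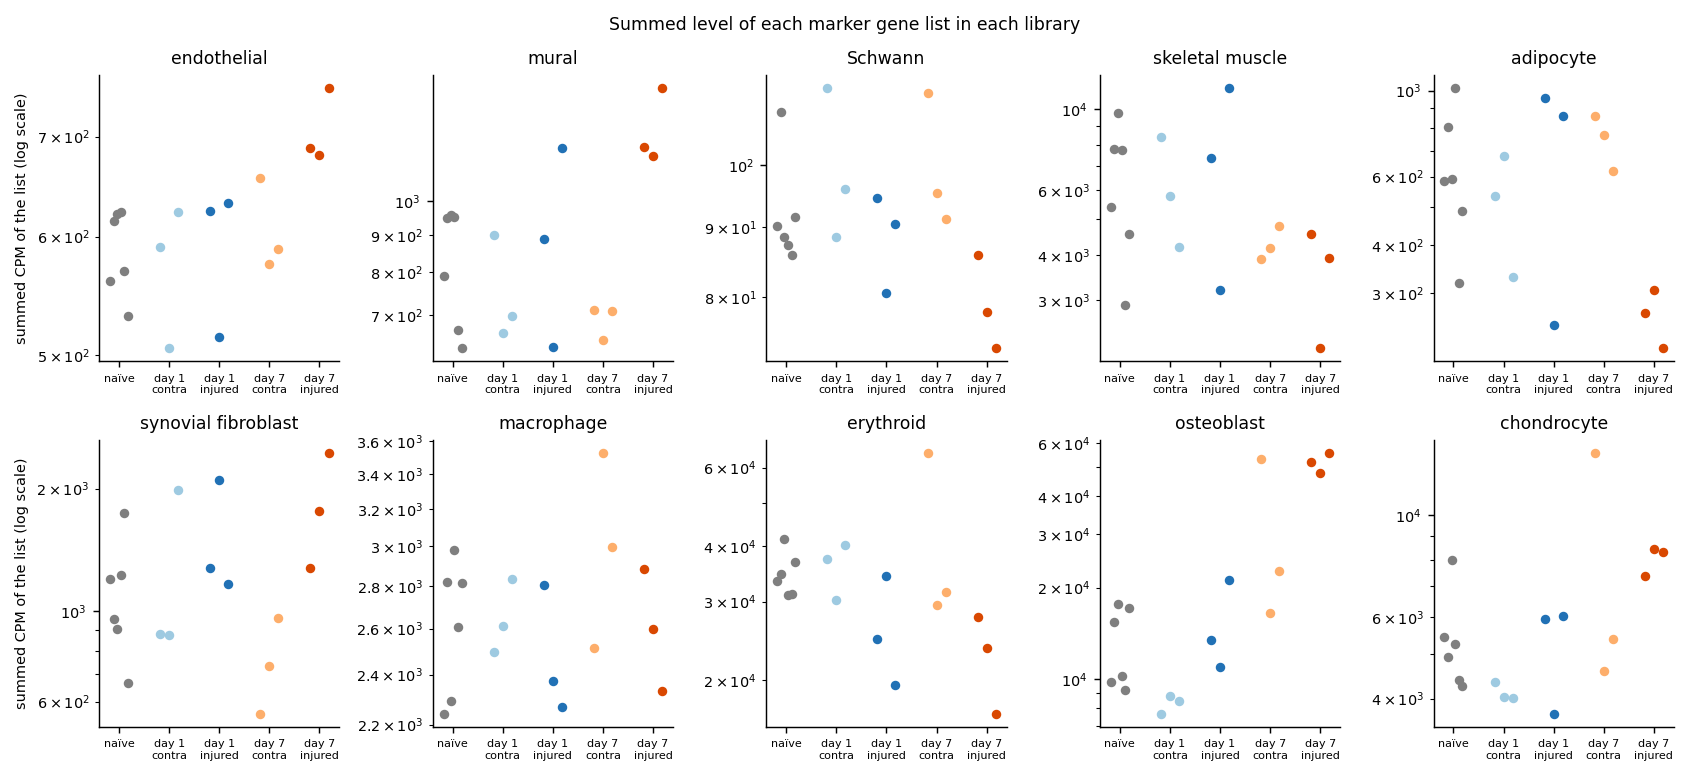
Summed CPM (y axes, log scale, different for each list) of 10 marker gene lists in each of the 18 libraries, by group. The endothelial, mural and osteoblast sums of the day 7 injured libraries all lie above the naïve ones, the adipocyte sums of 216.5 to 306.7 CPM all lie below, and day 7 contralateral replicate 1 is highest for the erythroid (64750 CPM) and chondrocyte (13610 CPM) lists.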

How the data were processed

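RNA was sequenced from 18 pooled cartilage libraries made with a stranded total RNA kit. The authors quantified transcripts with Kallisto and deposited, for each library, estimated counts and TPM (transcripts per 1000000) of 137436 transcripts. The study left out a sample with a low mapping rate, the sources used here do not say which, and all 18 deposited libraries were analysed here. The labels' processing notes name the human build GRCh38, but the identifiers are mouse, and 135107 (98.3%) were joined to GENCODE symbols for GRCm38. The others held 0.667% to 3.90% of the counts and were left out. Here estimated counts were summed per gene, rounded and tested with edgeR 4.0.16 in R 4.3.3 (filterByExpr, TMM, glmQLFit and glmQLFTest on group means, Benjamini-Hochberg over all genes), and thresholds of FDR 0.05 and 1.5-fold follow the study. Comparisons without day 7 contralateral libraries used the other 15, the rest all 18. The fit was tested on simulated counts. TPM shares were compared by two-sided exact permutation tests. Alternatives were DESeq2 1.42.0, limma-voom (limma 3.58.1), other scalings, filters, thresholds and library sets, and each library left out; scaling by total counts, and chain sums with further laminin chains added, were chosen after seeing the data. The genes and lists were chosen with earlier results of these data known. Named were the 10 laminin and nidogen genes, 10 preset genes of the other lists and the 5 furthest up and 5 furthest down among those called (none was called lower), and 5 genes nearest in pattern to the member furthest up and furthest down; other named genes were chosen after their values were seen, and some genes of these lists count in the totals but are not reported here by name. The authors' own replicate correlation model was not used because the labels do not pair the knees. The spread between libraries limits the precision, and for low genes counting error adds to it (Lamc3 had 59 to 64 counts in day 7 injured libraries).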

Additional observations from a re-analysis of the deposited data

Results flagged for a closer look

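In the naïve group, 17 sets of values were checked for a library far from the others, and chance flags about 1 set in 20. Lama3 made up 3.26% of the alpha chain TPM in naïve replicate 6 and 1.86% to 2.07% in the other 5 naïve libraries, so this library was set apart. The difference between injured and contralateral knees was larger at day 7 than at day 1 in the interaction test for Lama4 (by 1.57 on the log2 scale), Nid2 (by 1.29) and Lamc1 (by 1.16), and differed for Lamc3 by -1.33.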

How the results depend on the processing

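No paired analysis was possible because no label ties an injured library to the contralateral library of its own pool, and replicate numbers only name the libraries. Counts of the 10 genes called higher and lower stayed within 1.5 times of those reported under the other settings, apart from those called lower in the interaction test, which went from 1 to 0 at an FDR of 0.01, with limma-voom, with no filter on low counts and with only the groups compared. When each library was left out in turn, genes called higher ranged from 5 to 8 against naïve, 6 to 7 against day 7 contralateral, 4 to 6 against day 1 injured and 3 to 4 in the interaction, and genes called lower stayed at 1 except in the interaction, at 0 to 1. In the interaction, leaving out each library gave -0.10 to 0.51 for Lama2 and -0.10 to 0.63 for Lama3, lowest without day 1 injured replicate 2, and -0.41 to 0.23 for Lamb2, highest without day 7 contralateral replicate 1, and Lamb2 changed sign against day 1 injured under total count scaling (-0.009). The Nid1 share of nidogen TPM, lower by 1.47 points against naïve and by 0.143 against day 7 contralateral, ranged from -2.98 to 0.177 and from -2.18 to 2.05 points when each library was left out, changing sign without naïve replicate 4 (0.118), day 7 injured replicate 2 (0.177 and 1.51) or day 7 contralateral replicate 2 (2.05), and was 0.331 against day 7 contralateral with counts over effective length. The causes were not tested.

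Counts over all genes moved by over 1.5 times in some settings. Under total count scaling, 793 genes were called higher and 6042 lower against day 1 injured (1910 and 1347 as reported), 1305 lower against day 7 contralateral (686), and 252 higher and 94 lower in the interaction (750 and 52). Genes called lower at an FDR of 0.01 numbered 472 against naïve, 251 against day 7 contralateral, 382 against day 1 injured and 3 in the interaction, which had 341 higher. Without a fold limit, 3960 were higher and 2331 lower against naïve, 1310 lower against day 7 contralateral and 3427 higher against day 1 injured. Genes lower against day 7 contralateral were 452 with limma-voom and 279 with only the groups compared, and those lower in the interaction 155 with DESeq2, 25 with no filter, 27 with the length offset and 21 with only the groups compared. DESeq2 called 12 genes lower in day 1 injured against naïve knees, and 18 higher and 12 lower in day 7 contralateral against naïve knees, where edgeR called 0. CPM means by total counts were lower than the TMM-scaled ones in day 7 injured libraries, for example 268.1 for Lamc1 and 229.7 for Nid1. Lamc3 and Lama3 had the fewest counts, from 59 and 61 a library. The number of libraries, 3 in each injured and contralateral group, and their pooling limit all comparisons.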
